A study of Mus musculus with 8 samples.

Results

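The unfolded protein response of the endoplasmic reticulum (ER) was followed through 10 genes: the signalling genes Xbp1, Ern1 and Atf6, the ER chaperones Hspa5, Hsp90b1, Calr, Pdia4 and Pdia6, and the ER stress genes Dnajb9 and Herpud1. They were taken by gene symbol. Each of the 10 symbols matched 1 gene among the 54146 genes of the expression files, and all 10 passed the filter on low counts in every comparison.

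RNA-seq was performed on primary mouse cortical astrocytes in 8 libraries, 2 in each of 4 groups. Control KD astrocytes carried a non-silencing shRNA and GSTM1 KD astrocytes a Gstm1 shRNA, and each was analyzed at the basal level (no stimulation) and 6 h after TNF-α was added at 50 ng/ml. The cells came from cortices of newborn C57BL/6 pups, with brains pooled in a flask. Cells of all 4 groups, the controls included, had been infected with lentivirus (pLKO-puro) and selected with puromycin, and the astrocytes were enriched afterwards from mixed glia. GSTM1 is a glutathione S-transferase, an enzyme that couples glutathione to reactive compounds. The comparisons ask which of these genes differ with the knockdown in each state, and which with TNF-α.

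Unfolded proteins in the ER are sensed by 3 membrane proteins. IRE1α, encoded by Ern1, cuts an unconventional intron out of the Xbp1 mRNA, and the spliced form is translated into an active transcription factor. ATF6 moves to the Golgi, where proteases free its cytosolic portion as a transcription factor, and PERK slows translation and raises ATF4. XBP1 and ATF6 act on promoters of ER chaperones, folding enzymes and ER-associated degradation genes, and glial cells use this machinery to make secreted and membrane proteins.

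The Xbp1 gene (ENSMUSG00000020484.18, GRCm38, chromosome 11, 5520659 to 5525893, plus strand) is shown first at the site that IRE1α cuts, because the counts below cannot tell its spliced form from its unspliced form. The 26 bases in capitals are the excised stretch. They lie at chr11:5524279-5524304, in coding exon 4 of 5 of the GENCODE M21 transcript Xbp1-201, and were located as a pair of CNGCAG motifs spaced by that length. The same spacing of CNGCAG also occurs once in exon 1, at 5521116 to 5521141, so the motif pair alone is a match of letters.
Xbp1 IRE1α site: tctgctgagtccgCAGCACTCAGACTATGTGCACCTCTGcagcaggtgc

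The promoters are shown next, because the chaperone genes of this group are the textbook carriers of the ER stress response element. RefSeq promoters (GRCm38.p6, 300 bases each, from 250 bases before to 50 bases after the gene start) were found for 9 of the 10 genes and searched on both strands. The ER stress response element (ERSE), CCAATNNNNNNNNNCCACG, was present in 4 of the 9 promoters (Hspa5, Hsp90b1, Calr and Pdia6) and in 0.119% of all 32851 promoters. ERSE-II, ATTGGNCCACG, was present in Herpud1 alone among the 9, against 0.0365% of all promoters. The UPRE core TGACGTG was present in Hspa5 alone among the 9, against 2.01% of all. CCACG, which lies inside both ERSE and ERSE-II, was present in 8 of the 9 and in 32.8% of all, and the cyclic AMP response element TGACGTCA was in 0 of the 9 and in 1.79% of all. In the lines that follow, each written along the strand of its gene, capitals mark the fixed letters of the motif, or their complement where the match is on the other strand.
Hspa5 ERSE, chr2:34772020-34772048, plus strand, 65 to 47 bases before the start: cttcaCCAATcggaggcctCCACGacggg
Hspa5 UPRE core, chr2:34771921-34771951, plus strand, 157 to 151 bases before the start: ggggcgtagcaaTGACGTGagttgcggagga
Hsp90b1 ERSE, chr10:86705626-86705668, minus strand, 212 to 194 bases before the start: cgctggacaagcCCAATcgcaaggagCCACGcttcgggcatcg
Hsp90b1 other ERSE, chr10:86705521-86705563, minus strand, 107 to 89 bases before the start: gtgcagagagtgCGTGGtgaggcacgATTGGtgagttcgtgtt
Calr ERSE, chr8:84847063-84847105, minus strand, 162 to 144 bases before the start: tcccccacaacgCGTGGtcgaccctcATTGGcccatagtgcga
Pdia6 ERSE, chr12:17266479-17266521, plus strand, 98 to 80 bases before the start: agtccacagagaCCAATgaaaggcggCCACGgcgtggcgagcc
Herpud1 ERSE-II, chr8:94386365-94386399, plus strand, 52 to 42 bases before the start: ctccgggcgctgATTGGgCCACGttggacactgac
A match of letters is a description of the promoter and not a measurement of binding. The positions are relative to the RefSeq start, and the Hspa5 ERSE lies inside the GENCODE M21 gene, which begins earlier, at base 34771970 of chromosome 2. Among other ER folding genes, Canx, Creld2, Dnajc3 and Ero1b held an ERSE (4 of 22 with a promoter), and among ER-associated degradation genes Derl3 and Syvn1 did (2 of 16).

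Library totals ranged from 17349676 to 34434633 expected counts, so that counting error was small for these genes. Levels of 1 gene between libraries are given as CPM, the count scaled to the library total. The lowest count of any of the 10 in a library was 501, for Herpud1. The knockdown was checked on Gstm1 itself. Gstm1 stood at 230 and 377 CPM in control KD against 29 and 31.3 CPM in GSTM1 KD in the basal state, and at 209 and 390 CPM against 24.3 and 23.3 CPM after TNF-α. Replicates differed beyond sampling noise. Replicate 1 of control KD stood apart in both states, with the astrocyte filament gene Gfap at 995 CPM against 3080 CPM in replicate 2 in the basal state, and 920 CPM against 2890 CPM after TNF-α. Gfap was also lower in replicate 1 of GSTM1 KD, at 3120 against 5630 CPM in the basal state and 2980 against 5210 CPM after TNF-α. None of the 10 astrocyte markers was at or below the counting floor of 3 counts in any group. Markers of other cell types were found at uneven levels. The 8 neuron markers summed to 396 to 505 CPM, most of it Map2 (219 to 287 CPM), Stmn2 and Tubb3, with Snap25 at or below the floor in all groups. The 10 microglia markers summed to at most 13.1 CPM in any library, with P2ry12 at or below the floor in all groups and Cd68 at up to 4.24 CPM. The 6 endothelial markers summed to at most 25.4 CPM, with Cldn5 at or below the floor and Flt1 at up to 21.2 CPM. The 10 oligodendrocyte lineage markers summed to 537 to 840 CPM. Of these, Mog and Mag of mature oligodendrocytes were at or below the floor in all groups, whereas Olig1 stood at 297 to 518 CPM, Olig2 at 47.3 to 150 CPM and Cspg4 at 43.3 to 113 CPM. The libraries of a group are biological replicates by the study's account, without a statement of whether they came from separate cultures, and the p-values measure the spread between these libraries. In bulk RNA, fewer cells of a type and less RNA per cell cannot be told apart.

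The levels of the 10 genes can be compared with each other on the length-scaled TPM scale (transcript abundance scaled to a fixed total per library). The abundant ER chaperones led in every group. In control KD in the basal state, Hspa5 was at 465 ± 7.77 TPM (SD, n = 2), Calr at 427 ± 23.6, Hsp90b1 at 276 ± 14.8, Pdia6 at 187 ± 10.9 and Pdia4 at 130 ± 16.4 TPM. The signalling genes were low, with Xbp1 at 80.4 ± 12.9, Atf6 at 15.4 ± 0.806 and Ern1 at 10.2 ± 0.424 TPM, and Dnajb9 (57.8 ± 0.884 TPM) and Herpud1 (34.5 ± 2.35 TPM) stood between them. The order of the 10 genes was the same in both control KD groups, and no neighbours in that order overlapped.

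In both GSTM1 KD groups, one pair of neighbours changed place. Dnajb9 (54.35 and 58.71 TPM) and Xbp1 (54.19 and 57.19 TPM) overlapped in the basal state, and so did Dnajb9 (52.55 and 52.09 TPM) and Xbp1 (54.1 and 48.86 TPM) after TNF-α. In control KD Xbp1 was above Dnajb9 in each of the 4 libraries. The other neighbours kept their order without overlap.

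**Figure D1:**
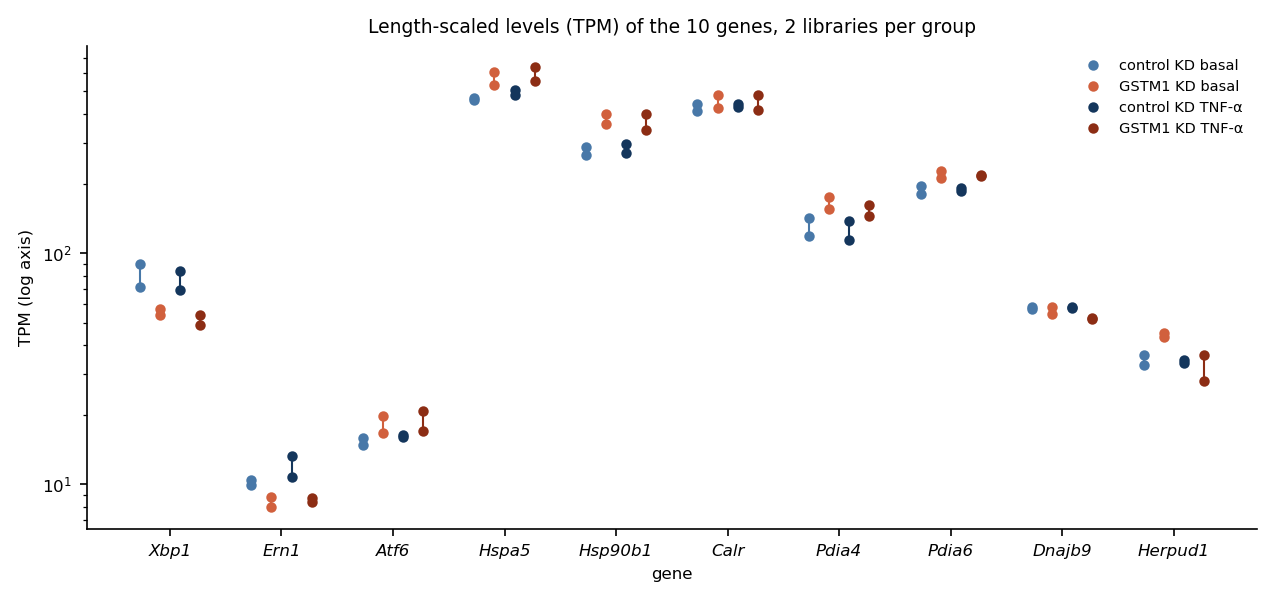
TPM of the 10 genes on a log axis, with 1 point per library, 4 groups of 2 libraries side by side for each gene, and a line joining the 2 libraries of a group. Hspa5, Calr and Hsp90b1 lie highest and Atf6 and Ern1 lowest in every group, and Xbp1 lies at the level of Dnajb9 in the GSTM1 KD groups.

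The 10 genes summed to 1690 and 1680 TPM in control KD and to 1860 and 2080 TPM in GSTM1 KD in the basal state. After TNF-α the sums were 1690 and 1750 TPM in control KD and 1830 and 2060 TPM in GSTM1 KD. Hspa5, Hsp90b1 and Calr together made up 69.2% to 73.5% of the sum in the 8 libraries. The share of Xbp1 in this sum was 5.3% and 4.25% in control KD against 2.91% and 2.75% in GSTM1 KD in the basal state, and 4.93% and 3.94% against 2.96% and 2.37% after TNF-α. The share of Hsp90b1 was 15.7% to 17.1% in the control KD libraries and 18.6% to 19.4% in the GSTM1 KD libraries. These shares are given without a test, since they are not independent of the values tested gene by gene below.

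The effect of GSTM1 KD was tested in each state with edgeR's quasi-likelihood test, with p-values adjusted over all genes by the Benjamini-Hochberg method and a threshold of 0.05. In the basal state 0 of the 10 genes passed, against 10.2% of the 14899 genes tested (4.6% higher and 5.62% lower in GSTM1 KD). Of the 10, 3 had an unadjusted p below 0.05 (Xbp1, Ern1 and Hsp90b1), against 31.6% of all genes, and DESeq2 called 1, Xbp1, lower, against 18.2% of all genes it tested. After TNF-α stimulation 1 of the 10 passed, Xbp1, which was lower in GSTM1 KD, against 16.2% of the 14593 genes tested (7.26% higher and 8.92% lower). DESeq2 called 2 there, Xbp1 and Ern1, both lower, against 20.4% of all genes.

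The CPM values of the compared groups did not overlap for 9 of the 10 genes in the basal state, against 63.5% of all genes tested, and for 8 of the 10 after TNF-α, against 66.6%. In both states Xbp1, Ern1 and Dnajb9 were the 3 genes with both GSTM1 KD libraries below both control KD libraries. The median log2 fold change of the 10 genes was 0.17 in the basal state, beside -0.002 over all genes, and 0.05 after TNF-α, beside -0.0106 over all genes.

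**Figure D2:**
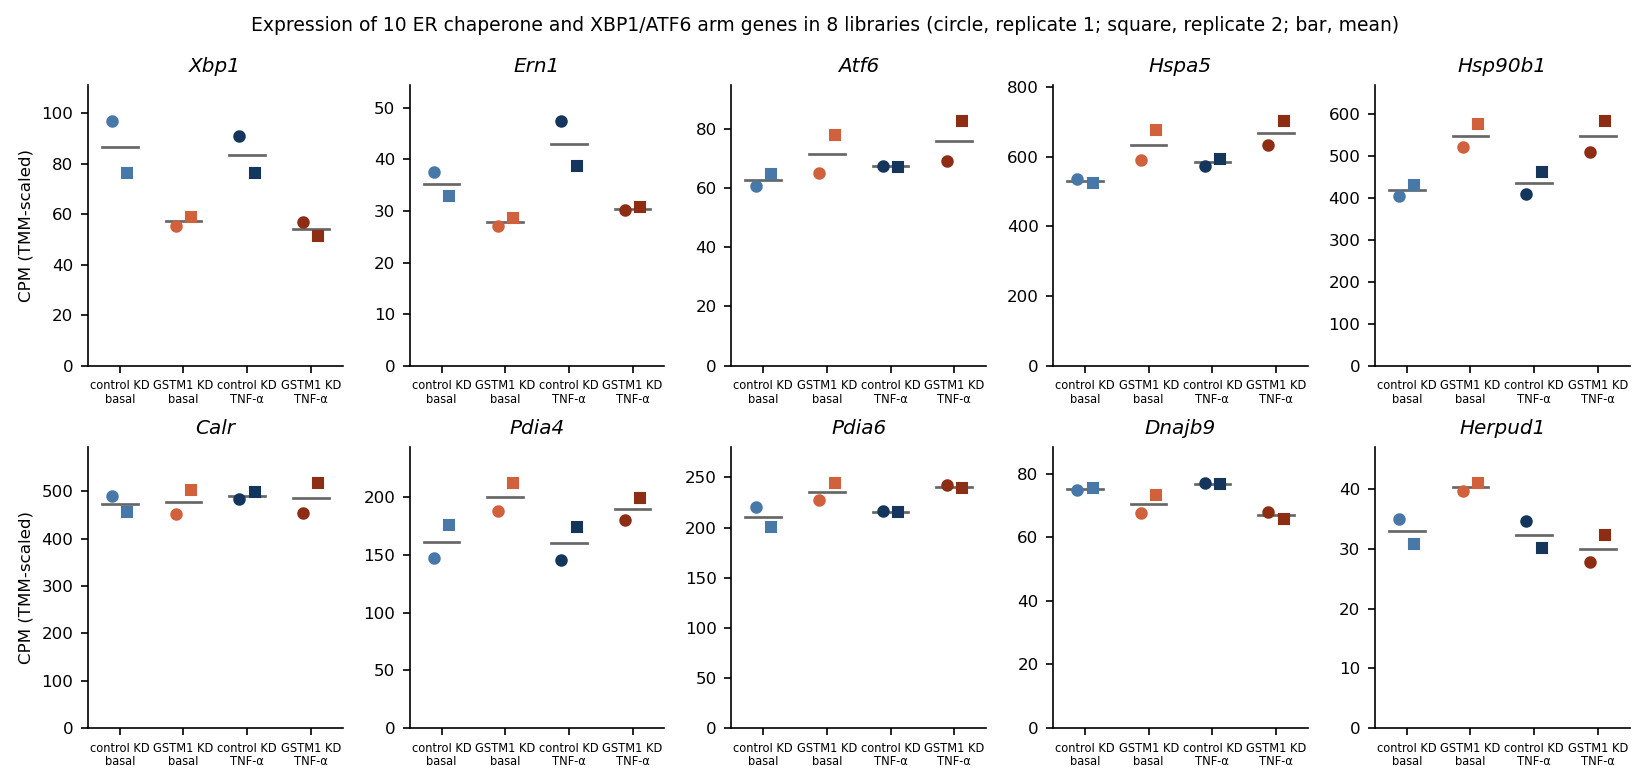
CPM of each of the 10 genes in the 8 libraries, with the library total scaled by TMM, axes starting at 0, circles for replicate 1, squares for replicate 2 and a bar at the group mean. Xbp1, Ern1 and Dnajb9 are lower in both GSTM1 KD groups without overlap, and Atf6, Hspa5, Hsp90b1, Pdia4 and Pdia6 are higher in them. Calr overlaps in both states and Herpud1 after TNF-α. Of these differences only that of Xbp1 after TNF-α passed the edgeR test. Over all genes, 63.5% did not overlap in the basal state and 66.6% after TNF-α.

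Xbp1, the transcription factor of the IRE1α branch, had the smallest p of the 10 genes in both states. Gene positions here and below are those of GRCm38 in GENCODE M21. In the basal state it was at 96.9 and 76.4 CPM in control KD and at 55.5 and 59.0 CPM in GSTM1 KD. After TNF-α it was at 90.9 and 76.2 CPM in control KD and at 57.0 and 51.2 CPM in GSTM1 KD. All 4 GSTM1 KD libraries thus lay below all 4 control KD libraries, and replicate 1 was the higher of the control KD libraries in both states. The log2 fold change was -0.65 ± 0.13 (SE, adjusted p = 0.0313) after TNF-α, a 1.57-fold lower level. In the basal state it was -0.60 ± 0.142 (adjusted p = 0.0552), which missed the threshold. With the replicate number as a block the basal difference passed, but the labels do not say what a number marks. Without control KD replicate 1, the library with low Gfap, the log2 fold change was -0.42 (adjusted p = 0.0391) in the basal state and -0.51 (adjusted p = 0.0251) after TNF-α. The call after TNF-α was lost when either GSTM1 KD library was left out (adjusted p = 0.124 without replicate 1 and 0.236 without replicate 2, fits in which 0 of all genes passed) and with limma on TPM (adjusted p = 0.0546), whereas the sign of the difference was the same throughout. The files count 4 Xbp1 transcripts in 1 gene value, so these values are total Xbp1 mRNA and the extent of splicing was not measured.

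Ern1 (ENSMUSG00000020715.9, chromosome 11, 106394650 to 106487852, minus strand), which encodes the IRE1α sensor and nuclease, differed in the same direction as its substrate. In the basal state it was at 37.6 and 32.9 CPM in control KD and at 27.1 and 28.6 CPM in GSTM1 KD. After TNF-α it was at 47.4 and 38.7 CPM in control KD and at 30.1 and 30.8 CPM in GSTM1 KD. The groups did not overlap in either state, but neither difference passed the edgeR test described above. The log2 fold change was -0.34 ± 0.13 (adjusted p = 0.143) in the basal state and -0.53 ± 0.139 (adjusted p = 0.0575) after TNF-α, and DESeq2 gave an adjusted p of 0.0435 for the latter. The difference after TNF-α also passed with the replicate number as a block.

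Atf6 (ENSMUSG00000026663.6, chromosome 1, 170704674 to 170867771, minus strand), the sensor and transcription factor of the other branch, had the opposite sign. It was at 60.7 and 64.8 CPM in control KD against 65.1 and 78.0 CPM in GSTM1 KD in the basal state, and at 67.5 and 67.2 CPM against 69.2 and 82.5 CPM after TNF-α. The GSTM1 KD libraries lay above the control KD libraries in both states, with a narrow gap, and replicate 2 was the higher GSTM1 KD library each time. The log2 fold changes, 0.19 ± 0.125 (adjusted p = 0.349) and 0.15 ± 0.115 (adjusted p = 0.407), did not pass.

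Hspa5 (ENSMUSG00000026864.13, chromosome 2, 34771970 to 34777547, plus strand) encodes BiP, the major ER Hsp70 chaperone and the protein that holds the sensors inactive. It was at 536 and 524 CPM in control KD and at 591 and 678 CPM in GSTM1 KD in the basal state. After TNF-α it was at 574 and 593 CPM in control KD and at 635 and 702 CPM in GSTM1 KD. Both GSTM1 KD libraries were above both control KD libraries in each state, by less than the test needed. Its log2 fold change was 0.26 ± 0.128 (adjusted p = 0.226) in the basal state and 0.17 ± 0.114 (adjusted p = 0.329) after TNF-α.

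Hsp90b1 (ENSMUSG00000020048.13, chromosome 10, 86690209 to 86705509, minus strand), which encodes the ER Hsp90 chaperone GRP94, had the largest positive log2 fold change of the 10 in both states. It was at 405 and 432 CPM in control KD and at 522 and 577 CPM in GSTM1 KD in the basal state. After TNF-α it was at 411 and 462 CPM in control KD and at 511 and 584 CPM in GSTM1 KD. The groups did not overlap, with gaps wider than either replicate difference in the basal state. The log2 fold change was 0.39 ± 0.122 (adjusted p = 0.0949) in the basal state and 0.30 ± 0.125 (adjusted p = 0.148) after TNF-α, and neither passed. Among the 10 alternative settings, the basal difference passed only with the replicate number as a block. With 1 library left out, the basal log2 fold change ran from 0.31 to 0.46. Hsp90b1 shares exons with the pseudogene 1810014B01Rik on the opposite strand and with Gm15344 on its own strand, and its count is uncertain to that extent.

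Calr (ENSMUSG00000003814.8, chromosome 8, 84841850 to 84846934, minus strand), which encodes the lectin chaperone and calcium store calreticulin, was level between the groups. It was at 490 and 457 CPM in control KD and at 453 and 504 CPM in GSTM1 KD in the basal state, and at 484 and 498 CPM against 455 and 517 CPM after TNF-α. The groups overlapped in both states. Their log2 fold change was 0.01 ± 0.124 (adjusted p = 0.95) in the basal state and -0.04 ± 0.116 (adjusted p = 0.831) after TNF-α. Calr and Hsp90b1 both carry an ERSE in the promoters printed above, and their log2 fold changes were the lowest and the highest among the 5 chaperones in both states.

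Pdia4 (ENSMUSG00000025823.9, chromosome 6, 47796141 to 47813430, minus strand) and Pdia6 (ENSMUSG00000020571.12, chromosome 12, 17266545 to 17284770, plus strand) encode protein disulfide isomerases, which form and rearrange disulfide bonds in new proteins. Pdia4 was at 147 and 176 CPM in control KD against 188 and 212 CPM in GSTM1 KD in the basal state, and at 146 and 174 CPM against 180 and 199 CPM after TNF-α. Pdia6 was at 220 and 201 CPM against 227 and 244 CPM in the basal state, and at 216 and 215 CPM against 242 and 239 CPM after TNF-α. For both genes the GSTM1 KD libraries lay above the control KD libraries in each state. The log2 fold changes of Pdia4, 0.30 ± 0.137 (adjusted p = 0.196) and 0.22 ± 0.123 (adjusted p = 0.248), did not pass. Those of Pdia6, 0.16 ± 0.115 (adjusted p = 0.384) and 0.13 ± 0.0951 (adjusted p = 0.361), did not pass either. With the replicate number as a block, the basal difference of Pdia4 passed and that of Pdia6 did not. Exons of Pdia6 overlap those of the protein-coding gene Atp6v1c2 on the opposite strand.

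Dnajb9 (ENSMUSG00000014905.4, chromosome 12, 44205559 to 44210326, minus strand) encodes ERdj4, an ER DnaJ protein that works with BiP and is a known XBP1 target. It was at 74.8 and 75.6 CPM in control KD and at 67.6 and 73.2 CPM in GSTM1 KD in the basal state. After TNF-α it was at 77.0 and 76.8 CPM in control KD and at 68.0 and 65.9 CPM in GSTM1 KD. The GSTM1 KD libraries were the lower ones in both states, with the tighter replicates after TNF-α. The log2 fold change was -0.10 ± 0.0995 (adjusted p = 0.545) in the basal state and -0.23 ± 0.0901 (adjusted p = 0.136) after TNF-α, so that neither passed.

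Herpud1 (ENSMUSG00000031770.16, chromosome 8, 94386438 to 94395377, plus strand) encodes HERP, an ER membrane protein of the degradation machinery, and its promoter carries the ERSE-II printed above. It was at 35.0 and 30.9 CPM in control KD and at 39.8 and 41.0 CPM in GSTM1 KD in the basal state. After TNF-α it was at 34.7 and 30.1 CPM in control KD and at 27.8 and 32.3 CPM in GSTM1 KD. The GSTM1 KD libraries were higher in the basal state and overlapped the control KD libraries after TNF-α. Herpud1 had a log2 fold change of 0.29 ± 0.122 (adjusted p = 0.166) in the basal state and -0.14 ± 0.141 (adjusted p = 0.526) after TNF-α. Herpud1 was the only one of the 10 genes other than Calr for which the sign of the knockdown difference was not the same in both states.

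**Figure D3:**
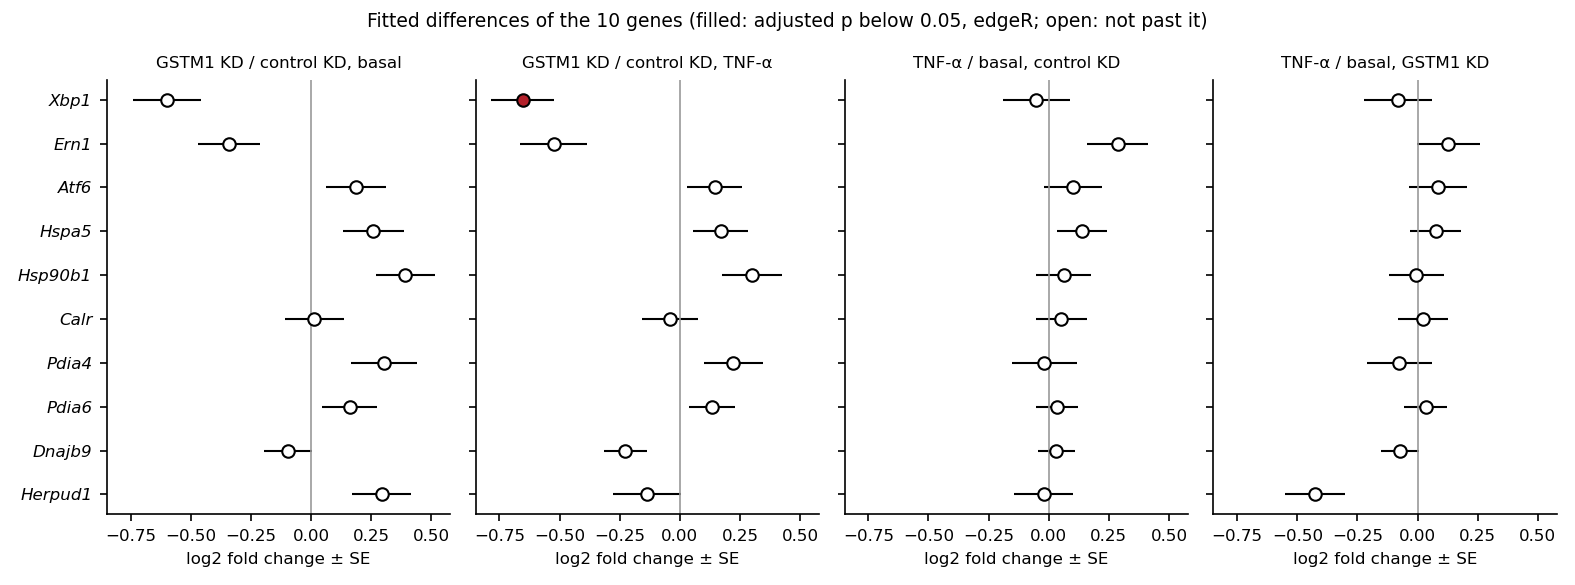
Log2 fold change of each of the 10 genes with its standard error as a line, in the 2 knockdown comparisons and the 2 TNF-α comparisons, with filled points for an adjusted p below 0.05 in edgeR. Only Xbp1 after TNF-α, at -0.65, is filled.

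TNF-α stimulation itself moved none of the 10 genes past the test. In control KD 0 of the 10 passed, against 2.63% of the 15332 genes tested (2.1% higher and 0.528% lower), and 0 had an unadjusted p below 0.05, against 12.5%. In GSTM1 KD 0 of the 10 passed, against 2.65% (2.35% higher and 0.294% lower), and 1, Herpud1, had an unadjusted p below 0.05, against 10.9%. DESeq2 called 0 of the 10 in both. CPM of the basal and TNF-α libraries did not overlap for 4 of the 10 genes in control KD, against 34.5% of all genes, and for 2 of the 10 in GSTM1 KD, against 44.5%.

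The largest TNF-α difference in control KD was that of Ern1, at 37.6 and 32.9 CPM before and 47.4 and 38.7 CPM after. Its log2 fold change was 0.29 ± 0.127 (adjusted p = 0.426 in edgeR). In GSTM1 KD it was that of Herpud1, at 39.8 and 41.0 CPM before and 27.8 and 32.3 CPM after, with a log2 fold change of -0.43 ± 0.125 (adjusted p = 0.192). Both TNF-α libraries of Herpud1 were below both basal libraries in GSTM1 KD, and in control KD they overlapped. The other log2 fold changes lay between -0.05 and 0.14 in control KD and between -0.08 and 0.13 in GSTM1 KD.

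The difference between the TNF-α responses was tested as an interaction term over all 8 libraries. By edgeR 0 of the 10 genes passed, 0 had an unadjusted p below 0.05, and DESeq2 called 0 of the 10. The background was 0% of the 15332 genes in edgeR, where 295 had an unadjusted p below 0.05, and DESeq2 called 27 genes. The largest of the 10 interaction terms was that of Herpud1, at -0.40 ± 0.176 on the log2 scale (adjusted p = 1). The estimates ran from -0.40 to -0.00, with a median of -0.06 beside 0.02 over all genes, of which 54.7% had a positive estimate. The sign of the 10 was not stable, since 7 of them turned positive when 1 or another library was left out.

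Other genes of the ER were set beside these 10 in lists chosen by function, and their counts are read against the 10.2% of all genes that passed in the basal state and the 16.2% after TNF-α. The lists were chosen with earlier results of these data known, so a share above this background is a description only. Among 14 other regulators tested, 3 fell and 0 rose in GSTM1 KD in the basal state, with a median log2 fold change of -0.17. After TNF-α 4 fell and 0 rose, with a median of -0.16. The genes that passed made up 21.4% and 28.6% of the list, and DESeq2 called the same numbers. Atf6b, the paralogue of Atf6, fell in both states, from 46.5 to 52.5 CPM in control KD to 24.3 to 25.7 CPM in GSTM1 KD in the basal state (log2 fold change -0.98 ± 0.123, adjusted p = 0.0192) and from 43.5 to 51.2 CPM to 23.8 to 24.6 CPM after TNF-α (-0.99 ± 0.126, adjusted p = 0.0137). Creb3l1, which encodes the ER membrane transcription factor OASIS of astrocytes, fell by 0.93 on the log2 scale in the basal state (adjusted p = 0.0194) and by 0.70 after TNF-α (adjusted p = 0.0343). Its relative Creb3l2 fell by 0.48 (adjusted p = 0.0434) and by 0.50 (adjusted p = 0.0266). Nfya, a subunit of the factor that binds the CCAAT letters of the ERSE, fell by 0.51 after TNF-α (adjusted p = 0.0351).

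Among 27 other ER folding genes, 2 rose and 0 fell in the basal state, with a median of 0.11 and a positive estimate for 21. After TNF-α 2 rose and 1 fell, with a median of 0.10. The shares, 7.41% and 11.1%, lay near the background or under it, and DESeq2 called 2 higher and 1 lower in each state. Over the 10 alternative settings, 1 to 7 folding genes passed in the basal state and 2 to 6 after TNF-α. The same settings passed 7.13% to 31.6% of all genes in the basal state and 10.7% to 29.5% after TNF-α. Erp29, an ER protein of the disulfide isomerase fold, was between 58.6 and 70.1 CPM in control KD and rose to between 117 and 123 CPM in GSTM1 KD in the basal state (log2 fold change 0.90 ± 0.125, adjusted p = 0.0221) and from 59.8 to 61.8 CPM to 118 to 122 CPM after TNF-α (0.96 ± 0.0921, adjusted p = 0.0105). Its exons overlap those of Naa25 and Tmem116 on the opposite strand. Hspa13, an Hsp70 family member of microsomes, rose by 0.57 (adjusted p = 0.0386) and by 0.47 (adjusted p = 0.0335) on the log2 scale. Pdia5, another disulfide isomerase, fell by 0.78 after TNF-α (adjusted p = 0.0344). Among the ER-associated degradation genes edgeR called 0 of 21 in the basal state and 0 of 20 after TNF-α, where 3 and 4 had an unadjusted p below 0.05 (31.6% and 36.2% of all genes), and DESeq2 called 0 in both. Other settings called up to 2 of them in each state, and leaving out 1 library up to 3.

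Among 30 genes of protein entry into the ER and export from it, 2 rose and 2 fell in the basal state, and 3 rose and 4 fell after TNF-α, with a median of -0.03 in both and with 13.3% and 23.3% passing. Kdelr3, which encodes a receptor that returns KDEL-tailed chaperones such as BiP to the ER, was between 24.9 and 28.3 CPM in control KD and fell to between 9.16 and 9.61 CPM in GSTM1 KD in the basal state (log2 fold change -1.50 ± 0.152, adjusted p = 0.016) and from 24.8 to 27.2 CPM to 7.57 to 8.56 CPM after TNF-α (-1.72 ± 0.155, adjusted p = 0.0104). Sec24d, a cargo adaptor of the vesicle coat COPII, fell by 0.81 (adjusted p = 0.0251) and by 0.73 (adjusted p = 0.017) on the log2 scale. Srpra, the signal recognition particle receptor subunit alpha, rose by 0.83 (adjusted p = 0.0195) and by 0.60 (adjusted p = 0.018), and Ssr2, a subunit of the translocon-associated complex, rose by 0.60 (adjusted p = 0.0308) and by 0.44 (adjusted p = 0.0335). The exons of Kdelr3, Srpra and Ssr2 overlap those of other genes on the opposite strand. The UPRE core was present in 2 of the 23 promoters of this list, those of Kdelr3 and Sec24d, against 2.01% of all promoters. An ERSE was in none of the 23. In the other lists the UPRE core was present in Nfyc, Txndc5, Txndc11, Ube2j1 and Vcp, which did not pass in either state.

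In the PERK arm 1 of 15 genes rose and 0 fell in each state, while the medians were -0.41 and -0.39 and the estimates of 12 and 13 genes were negative. This is 6.67% of the list in each state. DESeq2 also called 1 lower in the basal state and 2 after TNF-α. Over the 10 alternative settings, 1 to 8 PERK arm genes passed in the basal state and 0 to 8 after TNF-α. Of all genes, 7.13% to 31.6% and 10.7% to 29.5% passed in these settings. The control KD replicates lay far apart for several of these genes. In control KD in the basal state Atf4 was between 111 and 224 CPM and Ddit3 between 18.5 and 47.9 CPM, ranges that overlapped those of GSTM1 KD (109 to 133 and 24.2 to 24.3 CPM). Leaving out 1 library moved the count of passing PERK arm genes in both states. The count was highest without control KD replicate 2, where the share of all genes that passed was also the highest. The gene that rose was Atf3, an inducible transcription factor (log2 fold change 0.91, adjusted p = 0.0299, and 0.68, adjusted p = 0.0317). Among 15 cytosolic and mitochondrial chaperones, 0 rose and 2 fell in the basal state, and 1 rose and 2 fell after TNF-α, 13.3% and 20% of the list. Hspb1, a small heat shock protein, fell by 2.03 (adjusted p = 0.0307) and by 1.76 (adjusted p = 0.0197) on the log2 scale. With 1 library left out, its estimates ran from -2.48 to -1.41 in the basal state and from -2.12 to -1.26 after TNF-α. Hspd1, the mitochondrial chaperonin, fell by 0.77 (adjusted p = 0.0355) and by 0.78 (adjusted p = 0.019). Its exons overlap Hspe1 on the opposite strand. Dnaja1, a cytosolic DnaJ protein, rose by 0.42 after TNF-α (adjusted p = 0.0485), and its exons overlap Smu1 and Gm6297 on the opposite strand.

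With TNF-α, 0 of the other folding, degradation, and entry and export genes passed in either knockdown state by edgeR or by DESeq2. In control KD 2, 0 and 3 of them had an unadjusted p below 0.05, and in GSTM1 KD 0, 1 and 0, against 12.5% and 10.9% of all genes. Passing genes were found among the regulators (1 of 14 in control KD and 2 of 14 in GSTM1 KD) and in the PERK arm (2 of 15 in each). Over all genes 2.63% passed in control KD and 2.65% in GSTM1 KD by edgeR. Traf2, an adaptor shared by the TNF receptor and IRE1α, rose by 0.91 in control KD (adjusted p = 0.0291) and by 1.21 in GSTM1 KD (adjusted p = 0.00923), whereas the Ern1 and Xbp1 estimates of the same fit did not pass. Atf3 rose by 0.93 (adjusted p = 0.0138) and by 0.72 (adjusted p = 0.0319), and Cebpb, a transcription factor of the acute phase response, by 1.60 (adjusted p = 0.0102) and by 1.20 (adjusted p = 0.0281). Exons of Cebpb overlap those of Tmem189 on the opposite strand. Creb3l1 rose by 0.96 in GSTM1 KD (adjusted p = 0.0162). In control KD the estimate of 0.72 ± 0.142 missed the threshold (adjusted p = 0.0506) and passed it in 8 of 10 alternative settings, and the difference between the responses did not pass (adjusted p = 1).

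**Figure D4:**
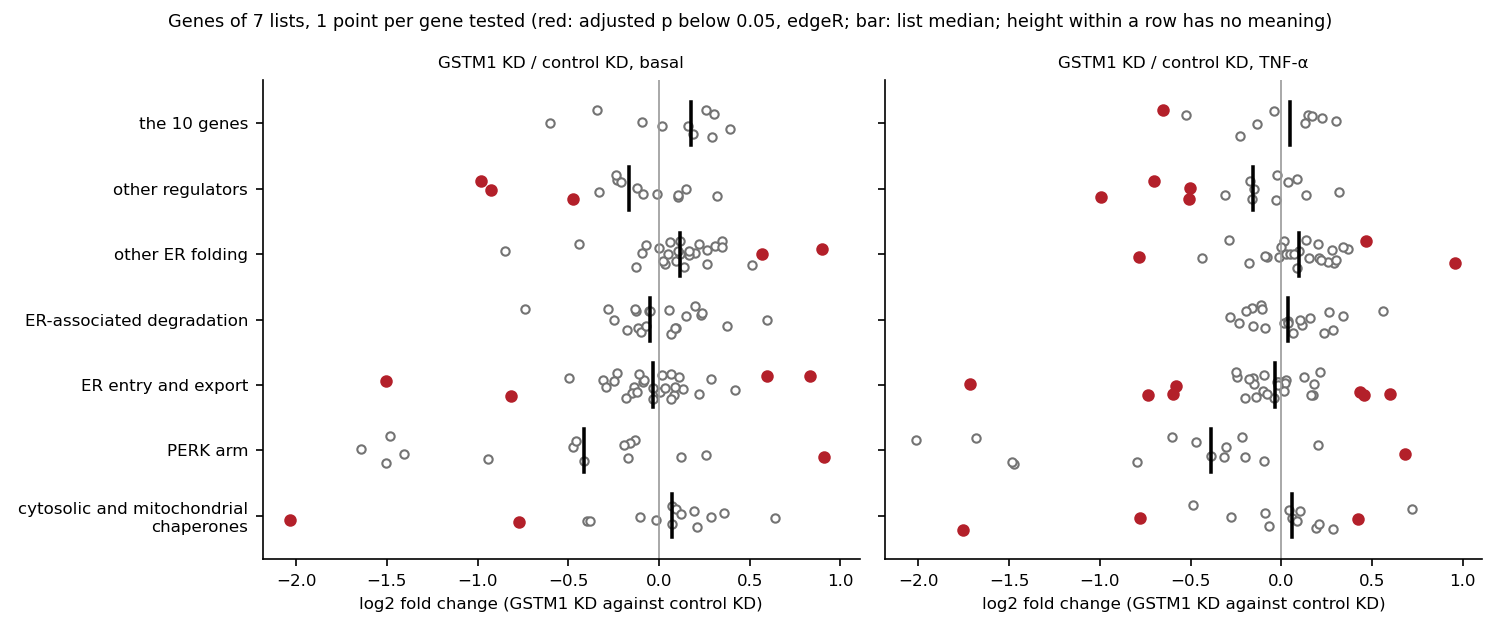
Log2 fold change of GSTM1 KD against control KD for each tested gene of 7 lists, in the basal state on the left and after TNF-α on the right, with red points for an adjusted p below 0.05 in edgeR and a bar at the median of each list. The other regulators hold 3 and 4 red points, all negative, and the degradation genes hold none.

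Likeness of pattern was described by Pearson's r of log2 CPM over the 8 libraries, which share groups, replicate numbers and library scaling. Nearest to Hspa5 among the other genes tested were RP24-68H1.1 (0.987), Uso1 (0.978), Eif4g2 (0.973), Becn1 (0.972) and Chtop (0.967). Among the 10 genes, Hspa5 was most like Atf6 (0.923), Hsp90b1 (0.905), Pdia6 (0.878) and Pdia4 (0.731). Their ranks of likeness to Hspa5 among 15331 genes were 98, 170, 338 and 1942. Nearest to Xbp1 were Rrp8 (0.995), Impdh1 (0.994), Card6 (0.993), Fxyd5 (0.992) and Abcf3 (0.991). Within the 10 genes, Xbp1 was most like Dnajb9 (0.86) and Ern1 (0.837) and least like Hsp90b1 (-0.943) and Pdia4 (-0.886). Among 15331 genes Dnajb9 was at rank 1922 and Ern1 at rank 2240 of likeness to Xbp1, so many other genes were closer. Over the 45 pairs of the 10 genes, 27 were positive and the median was 0.155.

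Other features of the libraries moved with the knockdown. The 7 fibroblast and mural markers summed to 3610 to 3880 CPM in control KD against 1820 to 2050 CPM in GSTM1 KD in the basal state, and to 3000 to 3200 CPM against 1620 to 1810 CPM after TNF-α. Acta2, the smooth muscle actin gene, made up most of this sum (3580 and 3160 CPM against 1830 and 1500 CPM in the basal state), and Dcn and Lum were at most 2.12 CPM in any library. Of the 6 tested, Acta2 and Col1a2 fell in both states. Pdgfrb, a pericyte marker, had the other sign, with a log2 fold change of 0.46 (adjusted p = 0.184) in the basal state and a rise of 0.81 (adjusted p = 0.0337) after TNF-α. Rgs5, at 3.62 CPM or less, also had the other sign (1.64, adjusted p = 0.1, and 1.55, adjusted p = 0.0916). The oligodendrocyte lineage markers summed to 709 to 840 CPM in control KD against 608 to 614 CPM in GSTM1 KD in the basal state, and to 620 to 734 CPM against 537 to 542 CPM after TNF-α. Olig2 fell by 0.85 on the log2 scale (adjusted p = 0.0251) and by 1.14 (adjusted p = 0.0101), and Olig1 fell by 0.44 after TNF-α (adjusted p = 0.0497, lost in 5 of 10 alternative settings), whereas Cspg4 and Cnp overlapped between the groups in both states. The 6 endothelial markers summed to 17.5 to 18.7 CPM against 9.14 to 12.2 CPM in the basal state and to 20.2 to 25.4 CPM against 12.7 to 17.6 CPM after TNF-α, and none of those tested passed (Flt1 and Cdh5 lay lower and Kdr higher in both states). The 8 neuron markers summed to 419 to 428 CPM against 457 to 505 CPM in the basal state and to 396 to 399 CPM against 427 to 480 CPM after TNF-α, and none of the 5 tested passed. The 7 choroid plexus and ependymal markers summed to 106 to 162 CPM against 130 to 145 CPM in the basal state, with an overlap, and to 91.2 to 107 CPM against 120 to 133 CPM after TNF-α. Foxj1 carried nearly all of this sum (91 to 161 CPM) and did not pass in either state. Folr1, of the same list, rose from at most 0.48 CPM by 2.67 (adjusted p = 0.0476) and by 2.78 (adjusted p = 0.033) on the log2 scale, to at most 2.75 CPM. With 1 library left out, the Folr1 estimates ran from 2.13 to 3.73 in the basal state and from 2.09 to 3.75 after TNF-α. The 10 astrocyte markers summed to 3300 to 7290 CPM in control KD and to 6660 to 9640 CPM in GSTM1 KD in the basal state, and to 3350 to 7350 CPM against 6770 to 9510 CPM after TNF-α, with an overlap in both states. Gfap alone stood at 920 to 5630 CPM. S100b was the only astrocyte marker that passed, and it fell by 1.44 (adjusted p = 0.0269) and by 1.71 (adjusted p = 0.0387). Among those that did not pass, Gfap, Aldh1l1, Slc1a2, Glul and Gja1 lay higher in GSTM1 KD without overlap in both states, with estimates of 0.36 to 1.10 and of 0.07 to 1.22, and Sox9 lay lower (-0.50 and -0.41). The 10 microglia markers summed to 6.41 to 12.9 CPM in control KD against 3.96 to 6.48 CPM in GSTM1 KD in the basal state. After TNF-α they summed to 6.49 to 13.1 CPM against 4.19 to 7.16 CPM. The sums overlapped in both states, and none of the 5 microglia markers tested passed. The share of mitochondrial counts was 1.21% to 1.51% in the control KD libraries and 1.87% to 1.99% in the GSTM1 KD libraries. The part of these features in the differences of Xbp1, Ern1 and the chaperones was not tested.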

How the data were processed

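RNA-seq of 8 libraries (4 groups, 2 per group) was analyzed from gene tables. The authors prepared strand-specific libraries, mapped reads to GRCm38 with STAR (2.5.4b) and quantified genes with RSEM (1.3.0). Whether the counting used strand is not given in the sources used here. The deposited expected counts are RSEM estimates that divide shared reads among transcripts and need not be whole, so they were rounded. The deposited TPM values, scaled by the authors' RSEM run to gene length and library, were used for levels between genes and in limma on log2(TPM + 1). The deposited effective lengths, in bases, were used as offsets in an alternative.

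CPM (counts scaled to the library total) was computed with TMM factors over 8 libraries. Differences were tested with edgeR 4.0.16 in R 4.3.3 (filterByExpr, TMM, quasi-likelihood test, Benjamini-Hochberg adjustment over all genes, threshold 0.05). The knockdown was tested in the 4 libraries of each state, and TNF-α responses and their difference in all 8. The scripts were tested on simulated data. Alternatives were DESeq2 1.42.0, limma 3.58.1, other scalings and filters, a replicate block and leaving out each library. Differences of the knockdown are log2 values, GSTM1 KD against control KD. Promoters came from RefSeq (GRCm38.p6), places and transcripts from GENCODE M21, and figures were drawn with matplotlib 3.10.9.

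The 10 genes and all lists were chosen with earlier results of these data known. From each list and each knockdown comparison, up to 2 higher and 2 lower passing genes with the smallest p were named. Creb3l2 at the basal level, Nfya and the genes named with TNF-α were named after their values were seen.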

Additional observations from a re-analysis of the deposited data

How the results depend on the processing

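With 2 libraries per group, small differences could not be told from replicate spread, and counts of passing genes moved with the method. In the basal state, where 0 of the 10 genes passed, DESeq2, no filter on low counts and a fit of all 8 libraries each gave 1 (Xbp1). These fits passed 18.2%, 16% and 18% of all genes they tested. After TNF-α, where 1 passed, these alternatives each gave 2 (Xbp1 and Ern1), against 20.4%, 18.8% and 20.3% of all genes. There limma on log2(TPM + 1) gave 0, against 10.7% of all genes. Leaving out 1 library gave 0 to 4 genes in the basal state and 0 to 3 after TNF-α. The 4 (Xbp1, Ern1, Hsp90b1 and Pdia4) came without control KD basal replicate 2, and the 3 (Xbp1, Ern1 and Pdia4) without control KD TNF-α replicate 2, fits in which 34.5% and 33.9% of all genes passed. Without either GSTM1 KD TNF-α library 0 passed. In such fits the lone library is assumed to vary like the other group.

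With the replicate number as a block, 3 of the 10 passed in the basal state (Xbp1 lower, Hsp90b1 and Pdia4 higher) and 2 after TNF-α (Xbp1 and Ern1, lower), while 4712 of all genes passed in the basal state and 4303 after TNF-α, in place of 1524 and 2360. The labels do not say what a number marks. The correlation of replicate differences between groups, over 15332 genes, ranged from 0.22 to 0.687.

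DESeq2, no filter and the fit of 8 libraries passed 2492, 3957 and 2762 of all genes in the basal state. No filter gave 4540 and limma 1565 after TNF-α. TNF-α itself gave 403 genes in control KD and 406 in GSTM1 KD, against 742 and 630 with DESeq2, 1255 and 1050 with no filter, 988 and 808 with the replicate block, and 72 and 691 with only the 4 libraries of that knockdown. Its difference gave 0 genes, against 27 with DESeq2 and 134 with no filter. Leaving out any 1 library of the compared groups lowered the number of genes that passed with TNF-α, in control KD and in GSTM1 KD.

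TNF-α responses and their difference gave 0 of the 10 under every alternative run. Of 730 recomputed log2 fold changes of the 10 genes, 17 newly passed, 3 no longer passed and 0 of those that passed in either fit changed sign. A further 50 changed sign where neither value passed.

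Of the other named genes, Hspa13 and Creb3l2 in the basal state, and Creb3l1, Creb3l2, Nfya, Pdia5, Atf3, Dnaja1, Pdgfrb, Olig1 and Folr1 after TNF-α, no longer passed with limma on TPM, and Atf3, Dnaja1, Olig1 and Folr1 after TNF-α not with effective lengths as offsets. The TNF-α calls of Traf2, Atf3 and Cebpb in control KD were lost when only the 4 control KD libraries were fitted (adjusted p = 0.179, 0.101 and 0.0878). The Atf3 call in GSTM1 KD was lost with limma on TPM and with effective lengths as offsets. The 10 alternative settings passed 7.13% to 31.6% of all genes in the basal state and 10.7% to 29.5% after TNF-α. Over these settings, 2 to 4 regulators passed in the basal state and 1 to 4 after TNF-α. For entry and export the counts were 4 to 7 and 6 to 7, and for the other chaperones 2 to 6 and 2 to 5. With 1 library left out, each knockdown call of a named ER, chaperone or marker gene was lost in 2 of the 4 fits, except those of Pdia5 and Dnaja1 after TNF-α, lost in 3. The TNF-α calls of Creb3l1, Atf3, Traf2 and Cebpb in GSTM1 KD were lost in 4 of 4, and in control KD those of Atf3 and Traf2 in 3 and that of Cebpb in 1. Leaving out 1 library moved the counts of passing genes to 0 to 5 and 0 to 4 for the regulators, to 0 to 7 and 0 to 8 for the folding genes, to 0 to 8 in both states for entry and export, and to 0 to 5 and 0 to 6 for the other chaperones.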
